A study of Mus musculus with 6 samples.

Results

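The miR-669 probes are the 27 spots on a mouse microRNA array named for the miR-669 paralogs, out of 1083 probes named for mouse miRNAs and 2990 probes in the table. They were chosen by name alone, with any letter or arm, but the family was proposed for study because its differences between knockout and control arrays were already known. Every difference between those groups is therefore given as a description. By name, 16 of the probes stand for mature miRNAs and 11 end in -P, which is read here as a probe of the precursor, a reading the labels do not define. None is a star probe. The 27 probes cover 15 paralogs, lettered a to o, and 11 of those paralogs have both a mature and a -P probe.

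The cKO group held 3 mice with the genotype Rprtf/f, Mx1-Cre+, and the Ctrl group held 3 littermates with Rprtf/f, Mx1-Cre-. All were female C57BL/6 mice aged 10 weeks that carried conditional Raptor alleles and received 7 injections of 400 µg of pIpC, an inducer of interferon. Lin-cKit+ stem and progenitor cells were enriched from bone marrow with beads 10 days after the last injection. Mx1-Cre answers to interferon and is active in many cell types, so deletion was not limited to the cells measured, and no check of the deletion on these arrays was made here. The comparison asks how loss of Raptor, the subunit that defines the nutrient-sensing kinase complex mTORC1, bears on miRNA levels.

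A miRNA begins as a hairpin in a longer transcript. The nuclease Drosha frees the hairpin and Dicer trims it to a short duplex, from which 1 arm is usually kept as the mature miRNA, named 5p or 3p after its side of the hairpin. The miR-669 genes belong to a rodent tandem repeat in an intron of Sfmbt2, an imprinted Polycomb gene, where they alternate with copies of miR-466, miR-467 and miR-297, and the cluster is known for its expression in placenta and embryonic stem cells. In the RefSeq gene table (GRCm38.p6) 29 of 30 Mir669 genes lie within the span of Sfmbt2, among them 12 copies of Mir669a and 2 each of Mir669d and Mir669m. The exception is Mir669n, on another chromosome. A probe of miR-669a can thus draw on transcripts of many near-identical genes, and members of the family are not independent measurements of each other.

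Of the 27 members 1, miR-669n, matched the RefSeq miRNA table used here. It is shown because it is the paralog outside Sfmbt2 and because it displays the run of alternating G and U found in many repeat-family miRNAs. The mature RNA lies on the plus strand at chr3:115979905-115979924 (GRCm38.p6), within a hairpin of 54 bases at chr3:115979902-115979955. In the first line below the capitals mark the seed, bases 2 to 8, and in the second they mark the mature arm, bases 4 to 23 of the hairpin.
miR-669n: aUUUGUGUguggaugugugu
Mir669n hairpin: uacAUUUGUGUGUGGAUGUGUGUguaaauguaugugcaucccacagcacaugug
No other mature sequence in the table shared that seed.

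The deposited values are relative intensities on a linear scale. The random-sequence probes, called Randomer, set the background: their mean was 0.379, 0.351 and 0.348 on the arrays of cKO mice 1, 2 and 3 and 0.357, 0.388 and 0.366 on those of Ctrl mice 1, 2 and 3. In log2 terms the cKO mean was 0.04 lower than the Ctrl mean (difference -0.04; exact two-sided permutation p = 0.5, n = 3 each, where 0.1 is the smallest p possible), so the groups' backgrounds overlapped. The 95th percentile of the Randomer probes ran from 0.377 to 0.463 over the 6 arrays, and a probe above it on an array is called above background there. Among blood markers miR-223, miR-142-5p, miR-130a and miR-181a were above background on all 6 arrays. miR-142-3p was above it on 2 of 3 cKO and 0 of 3 Ctrl arrays, though its values overlapped (0.417 to 0.463 in cKO, 0.409 to 0.446 in Ctrl). Both miR-126 probes, for a miRNA known from early progenitors, were above it on 1 of 3 cKO and 0 of 3 Ctrl arrays. Lymphoid miR-150 was above background on all 6 arrays, erythroid miR-144 on 3 cKO and 2 Ctrl arrays, and erythroid miR-451 on 2 of each group. Of markers of other tissues, the muscle miRNAs miR-1 and miR-206 were above it on 0 of 6 arrays, muscle miR-133a on 1 array of each group, liver miR-122 on 2 of each, brain miR-124 on 1 cKO array, and brain miR-9 and miR-128 on all 6. The mean log2 value of 6 control probes for snoRNAs and GAPDH was 0.58 higher in cKO (exact two-sided permutation p = 0.1, n = 3 each).

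Most of the family was well detected. On all 6 arrays 20 of the 27 probes exceeded background, 11 mature and 9 -P, and only the mature probes miR-669g and miR-669h-5p did so on none. On single arrays 22 to 25 members were above background in cKO and 20 or 21 in Ctrl. Of all 1083 mouse probes, 440 were above background on all 6 arrays. Single arrays had 58.4% to 63.8% of mouse probes above it in cKO and 46.4% to 52.7% in Ctrl, so the difference in counts was not limited to this family. The cutoff itself was 0.431, 0.406 and 0.377 on cKO arrays 1 to 3 and 0.423, 0.463 and 0.445 on Ctrl arrays 1 to 3. These counts therefore depend on the cutoff as well as on the signal, and the share of each was not tested. The median member stood at 1.38, 1.43 and 2.09 on cKO arrays 1 to 3 and at 1.04, 1.12 and 1.12 on Ctrl arrays. That gap came with the -P probes, whose median was 2.17, 2.70 and 3.48 in cKO against 0.881, 0.938 and 0.967 in Ctrl. The median mature probe, at 1.10, 1.07 and 1.75 in cKO, lay on either side of the Ctrl values of 1.15, 1.15 and 1.15. No member reached the scanner's limit on any array.

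**Figure D1:**
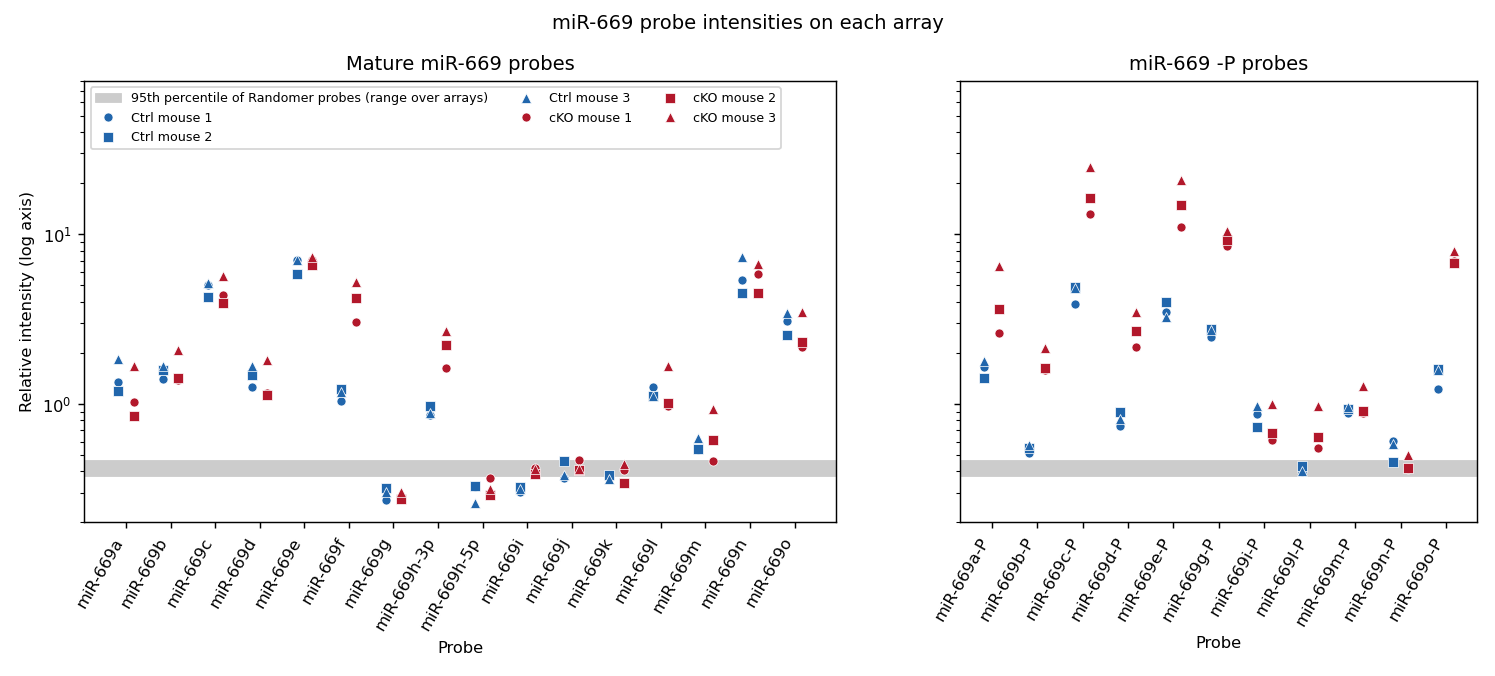
Relative intensity (log axis) of each miR-669 probe on each array, with mature probes on the left and -P probes on the right, Ctrl mice in blue and cKO mice in red. The grey band is the range over arrays of the 95th percentile of the Randomer probes, 0.377 to 0.463; 8 of 11 -P probes and 3 of 16 mature probes have all cKO points above all Ctrl points.

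In cKO cells 8 of the 11 -P probes and 3 of the 16 mature probes were higher, and none was lower, in limma's fit over all mouse probes (Benjamini-Hochberg adjusted p under 0.05). The same fit called 6.83% of all 1083 mouse probes, 6.46% higher and 0.369% lower, and 3.95% of the 354 mouse -P probes higher. The 11 called members are also the 11 whose cKO arrays all lay above all Ctrl arrays, as was true of 15.8% of mouse probes, and no member had all cKO arrays below all Ctrl arrays, as 3.88% of mouse probes did. Because the contrast chose the family, nothing is read from these shares. The median log2 difference was 1.70 over the -P probes, 0.06 over the mature probes and 0.09 over all 27, beside 0.04 over all mouse probes. Without Ctrl mouse 1 the fit called 7 members instead of 11, and 3.14% of all mouse probes instead of 6.83%. In bulk RNA of this kind more cells with a transcript and more transcript per cell cannot be told apart.

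On the deposited values the -P probe of miR-669o showed the largest difference of the family. It read 6.94, 6.78 and 7.96 on the 3 cKO arrays and 1.23, 1.62 and 1.59 on the 3 Ctrl arrays, a log2 difference of 2.30 ± 0.28 (SE, n = 3 each), or 4.92-fold. The cKO arrays lay close together and far above the controls. The rank depended on the background setting: with the Randomer mean subtracted, the difference was 2.65 for miR-669o-P and 3.01 for miR-669b-P. The -P probe of miR-669e read 11.0, 14.9 and 21.0 in cKO and 3.48, 3.96 and 3.27 in Ctrl, a log2 difference of 2.09 ± 0.31. That of miR-669c, the brightest -P probe in cKO, read 13.1, 16.3 and 24.8 against 3.86, 4.91 and 4.80, a log2 difference of 1.95 ± 0.31. Both climbed well clear of the Ctrl range on every cKO array, and on both cKO mouse 3 was the highest.

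The -P probe of miR-669g differed by 1.82 ± 0.28 on the log2 scale, with 8.47, 9.26 and 10.4 in cKO and 2.48, 2.75 and 2.73 in Ctrl. That of miR-669d read 2.17, 2.70 and 3.48 in cKO and 0.740, 0.897 and 0.818 in Ctrl, a log2 difference of 1.74 ± 0.25. That of miR-669b read 1.58, 1.64 and 2.12 in cKO and 0.514, 0.550 and 0.571 in Ctrl, a log2 difference of 1.70 ± 0.20. On each of these 3 -P probes the groups lay far apart, and the differences between the 3 log2 values are smaller than any of their SEs. That likeness holds for the deposited values only. With the Randomer mean subtracted, the log2 differences were 1.98 ± 0.33 for miR-669g-P, 2.41 ± 0.38 for miR-669d-P and 3.01 ± 0.43 for miR-669b-P.

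On the deposited values, smaller differences were seen for 2 further -P probes. That of miR-669a, the paralog with most gene copies, read 2.62, 3.64 and 6.48 in cKO and 1.66, 1.42 and 1.79 in Ctrl, a log2 difference of 1.29 ± 0.34. Its cKO arrays did not overlap the controls but were widely spread, with mouse 3 far above the others. That of miR-669l read 0.547, 0.641 and 0.970 in cKO and 0.399, 0.431 and 0.405 in Ctrl, where it was not above background on any array, so it was at least 1.57-fold higher in cKO. With the Randomer mean subtracted, the log2 differences were 1.52 for miR-669a-P and 1.88 for miR-669l-P. The call for miR-669a-P was lost in 9 of 15 alternative runs and that for miR-669l-P in 8 of 15, median centring and quantile normalization among them for both. The other 6 -P probes kept the call in all 15.

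The remaining -P probes, those of miR-669i, miR-669m and miR-669n, had log2 differences between -0.30 and 0.13, did not pass, and overlapped between the groups. That of miR-669n was above background on 2 of 3 arrays in each group. miR-669n is the paralog outside Sfmbt2, while the genes of miR-669i and miR-669m lie within it.

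Among the mature probes, miR-669f and miR-669h-3p were higher in cKO by amounts within the range of the -P probes that passed. miR-669f read 3.06, 4.19 and 5.23 in cKO and 1.04, 1.22 and 1.18 in Ctrl, a log2 difference of 1.82 ± 0.28, or 3.54-fold. miR-669h-3p, the 3p arm of its hairpin, read 1.63, 2.21 and 2.68 in cKO and 0.864, 0.969 and 0.881 in Ctrl, a log2 difference of 1.24 ± 0.25. On both probes each cKO array stood above each Ctrl array. The call of miR-669f held in all 16 alternative runs, and that of miR-669h-3p was lost in 3, quantile normalization, snoRNA and GAPDH scaling and the run without Ctrl mouse 1. The opposite arm, miR-669h-5p, was not above background on any array.

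The third mature probe that passed, miR-669i, was a faint one. It read 0.422, 0.384 and 0.413 in cKO and 0.302, 0.326 and 0.315 in Ctrl, a log2 difference of 0.37 ± 0.10. It was above background on 1 of 3 cKO arrays and on 0 of 3 Ctrl arrays, no fold change can be bounded, and the call was lost when any 1 array was left out. With the mouse numbers as a block it did not pass either, leaving 10 called members, beside 8.77% of all mouse probes.

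None of the 3 brightest mature probes passed. miR-669e, the brightest, read 7.08, 6.63 and 7.35 in cKO and 7.02, 5.86 and 7.09 in Ctrl, a log2 difference of 0.08 ± 0.28. miR-669n read 5.87, 4.49 and 6.66 in cKO and 5.34, 4.51 and 7.36 in Ctrl, a log2 difference of -0.0043 ± 0.31. miR-669c read 4.41, 3.92 and 5.65 in cKO and 4.99, 4.29 and 5.14 in Ctrl, a log2 difference of -0.06 ± 0.29. For all 3 the groups overlapped. Their differences depended on the scaling: after quantile normalization they were -0.52 for miR-669e, -0.63 for miR-669n and -0.69 for miR-669c, none of which passed. The lowest difference of the family belonged to mature miR-669a, with 1.03, 0.845 and 1.68 in cKO and 1.34, 1.18 and 1.84 in Ctrl, a log2 difference of -0.34 ± 0.28 that did not pass. It was -0.73 after quantile normalization, still without passing, and -0.91 and called lower when scaled to snoRNA and GAPDH. Counting these, 9 mature probes were above background on all 6 arrays without passing, and their differences ran from -0.34 to 0.18. The remaining 4 that did not pass, miR-669g, miR-669h-5p, miR-669j and miR-669k, were above background on no Ctrl array.

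**Figure D2:**
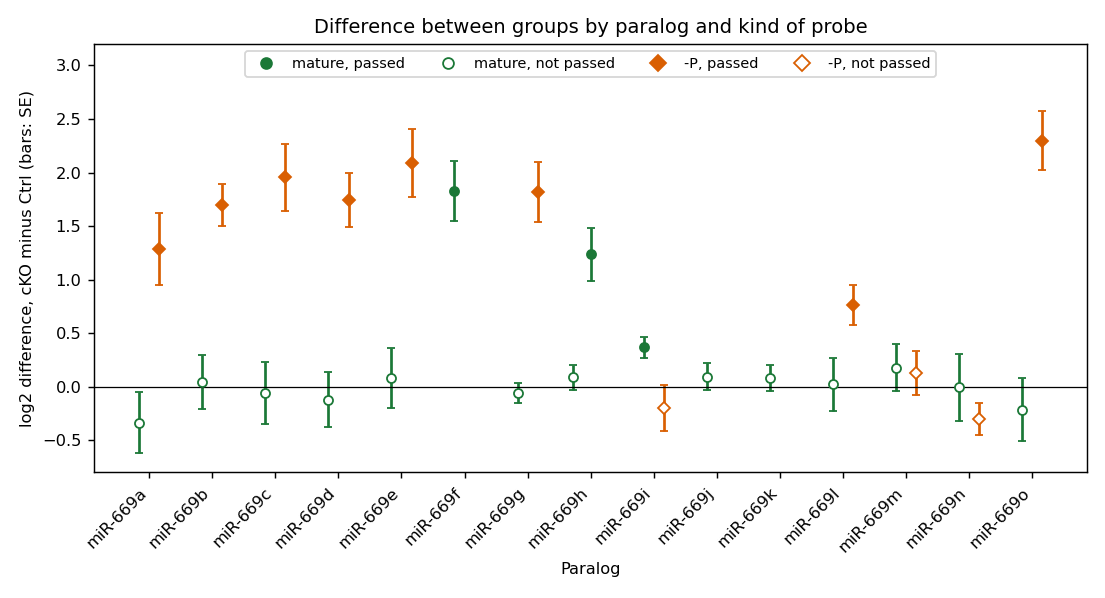
Log2 difference between groups (cKO minus Ctrl, bars are SE, n = 3 each) for every miR-669 probe by paralog, with mature probes as circles, -P probes as diamonds, and filled symbols for probes that passed limma's fit. Filled diamonds lie between 0.76 and 2.30 while most circles lie near 0; of the circles of miR-669h the higher is the 3p arm.

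The contrast between -P and mature probes could be read within single arrays, where a shared brightness of the array cancels. For each of the 11 paralogs with both probes, the log2 ratio of -P to mature signal was taken on each array and set relative to its mean over the Ctrl arrays. For miR-669o this ratio was 2.72, 2.58 and 2.23 in cKO and -0.30, 0.37 and -0.07 in Ctrl. For miR-669c it was 1.67, 2.15 and 2.23 in cKO and -0.28, 0.29 and -0.01 in Ctrl. For miR-669b it was 1.71, 1.71 and 1.53 in cKO and 0.06, -0.02 and -0.05 in Ctrl. In each case the -P probe gained on its mature partner on every cKO array, by far more than the spread within a group.

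In all, 8 of the 11 ratios were higher on every cKO array than on any Ctrl array. For the 7 whose -P probe was above background on all Ctrl arrays the gain was 1.62 for miR-669a to 2.51 for miR-669o. For miR-669l, whose -P probe was at background in Ctrl, it was at least 0.63. The other paralogs, miR-669i, miR-669m and miR-669n, overlapped between the groups. The mature probes of miR-669g and miR-669i were not above background on any Ctrl array, so those ratios hold little but the -P signal. A ratio of this kind shows that the probes changed unequally, not that either stayed constant. The same count over other mouse pairs is not given here, so the gain is not called particular to this family. In the related repeat families the log2 differences went both ways. That of miR-467c-P was 1.97 against 0.29 for miR-467c, and that of miR-466h-P 1.94 against 0.06 for miR-466h. By contrast, miR-467f-P had 0.25 against 2.50 for miR-467f, and miR-466g-P 0.04 against 1.83 for miR-466g. The mature probe also had the higher difference for miR-467g (0.14 for -P, 0.63 for mature) and miR-467h (-0.03 for -P, 0.29 for mature), none of which passed.

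**Figure D3:**
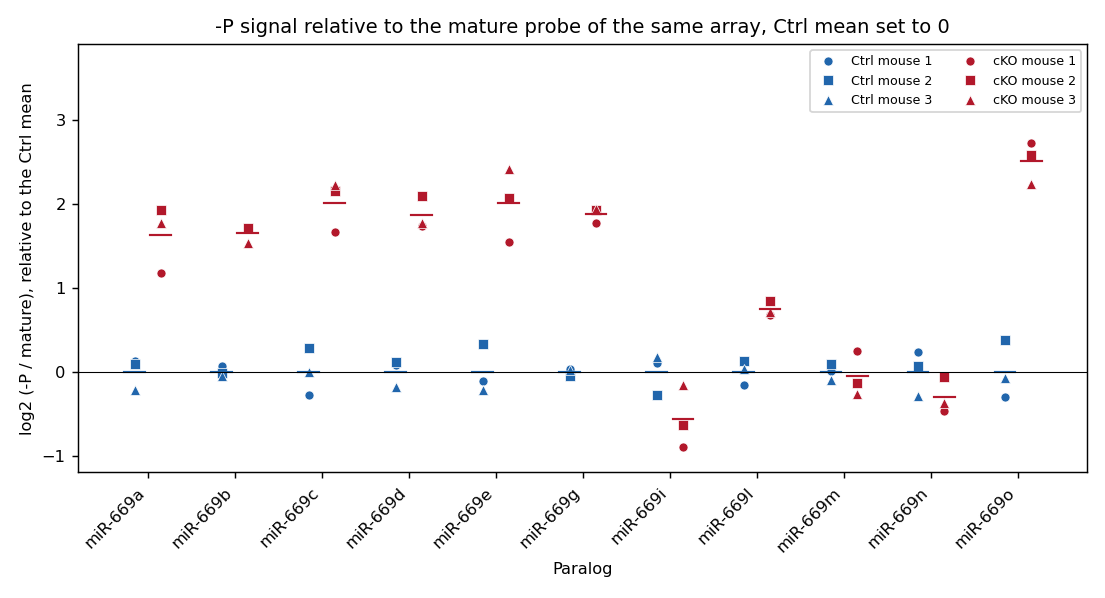
Log2 ratio of the -P to the mature signal of the same paralog and array, with the mean of the 3 Ctrl arrays set to 0; symbols are arrays, short lines are group means. Red points (cKO) stand above all blue points (Ctrl) in 8 paralogs, by 1.62 to 2.51 on average in all of them but miR-669l, whose -P probe is at background in Ctrl, and overlap them in miR-669i, miR-669m and miR-669n.

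The cKO arrays were not alike across the family. cKO mouse 3 was the highest of the 6 arrays for 20 of 27 members, including 10 of the 11 -P probes and 10 of the 16 mature probes, and for 16.6% of all mouse probes. Its snoRNA and GAPDH probes were also the highest, with a mean log2 value of 0.04 against -0.47 and -0.45 for cKO mice 1 and 2 and -0.95 to -0.79 for the Ctrl mice. Without cKO mouse 3 the fit called 10 members, beside 11.9% of all mouse probes, and the median -P difference was 1.56. The difference of miR-669o-P was then 2.23, that of miR-669a-P 0.93 and that of miR-669l-P 0.53. Scaling each array to its snoRNA and GAPDH mean lowers every log2 difference by the same 0.58 and so moved the median of all mouse probes to -0.54. The fit then called 31.9% of all mouse probes, among them 7 members as higher and 5 as lower, and the median -P difference was 1.12.

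The other families of the repeat cluster offered a comparison by arm. Of 47 probes for miR-297, miR-466 and miR-467, 18 passed as higher and none as lower, with a median log2 difference of 0.31. The share passing as higher was 38.3%, beside 40.7% of the miR-669 probes and 6.46% of all mouse probes. A high share was thus not particular to miR-669. Among the 47, all 13 probes named 3p or star passed as higher, with differences from 1.05 to 2.32. None of the 7 probes named 5p did, with differences from -0.13 to 0.31. Of the 17 with no arm in the name 3 passed, and of the 10 -P probes 2 passed. miR-669h divides the same way by name, its 3p arm passing and its 5p arm not, although the 5p probe is at background. These lists share arrays and sequence with miR-669, so no test between them was made.

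Repeats were then looked for in the mature sequences that RefSeq holds. Among 189 mouse probes whose name matches a mature RefSeq entry exactly, the run ACACACA was found in 2 and the run GUGUGUG in 5, searching the mature strand as written. Over all 1679 mature entries of the table the shares are 0.298% and 0.655%. The 7 sequences are printed because they show both kinds of run beside the probes' values. Capitals mark the run, overlapping runs joined.
miR-467f: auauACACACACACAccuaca
miR-467g: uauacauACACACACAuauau
miR-466k: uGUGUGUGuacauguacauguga
miR-467h: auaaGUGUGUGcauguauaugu
miR-669n: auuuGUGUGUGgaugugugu
miR-574-5p: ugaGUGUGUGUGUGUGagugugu
miR-1187: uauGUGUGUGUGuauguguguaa

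They lie on GRCm38.p6 at chr11:69635419-69635439 (miR-467f, minus strand), chr5:34732872-34732892 (miR-467g, minus), chr3:85467396-85467418 (miR-466k, plus), chr9:115381898-115381919 (miR-467h, plus), chr5:64970328-64970350 (miR-574-5p, plus) and chr5:82798964-82798986 (miR-1187, minus). All are outside Sfmbt2.

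Of the 2 probes with a CA run 1 passed. miR-467f read 13.0, 14.6 and 18.0 in cKO and 2.43, 3.09 and 2.50 in Ctrl, a log2 difference of 2.50 ± 0.29 that passed. miR-467g, above background on only 1 of 3 Ctrl arrays, read 0.485, 0.690 and 0.887 in cKO and 0.465, 0.402 and 0.431 in Ctrl, a log2 difference of 0.63 ± 0.19 that did not pass. On both, each cKO array stood above each Ctrl array. The 5 probes with a GU run, miR-669n among them, differed by -0.0043 to 0.29. All were above background on all 6 arrays and none passed, beside 6.83% of all mouse probes called. With a share that low, no call among 5 probes says little about GU runs. miR-466k, for instance, read 19.7, 15.2 and 15.5 in cKO and 16.7, 13.8 and 19.4 in Ctrl. Of the 182 matched probes with neither run 6 passed as higher, so a CA run was not needed to pass. These 7 sequences are too few to rank the repeats, and the sequences of the -P probes were not analysed here.

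**Figure D4:**
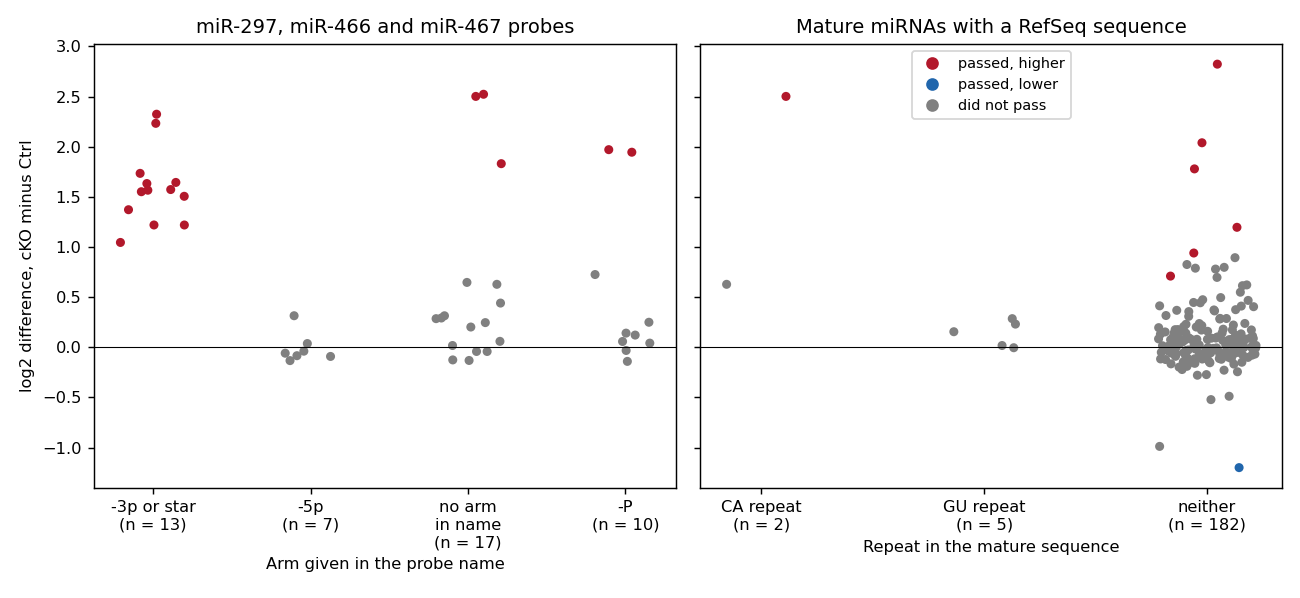
Log2 difference between groups (cKO minus Ctrl) for single probes, coloured by whether they passed limma's fit; left, probes of miR-297, miR-466 and miR-467 by the arm in their name, right, mature miRNAs matched to RefSeq by the repeat they hold. All 13 probes named 3p or star lie between 1.05 and 2.32 and the 7 named 5p between -0.13 and 0.31; the 5 GU probes lie between -0.0043 and 0.29.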

How the data were processed

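The authors deposited 1 table of linear intensity values for 6 arrays with 1 colour. Per the labels' protocols, the RNA (5 µg a sample) was copied from biotinylated random octamers and read through a streptavidin dye on an Axon scanner. How images were read, corrected and normalized is not given in the sources used here. The top value of every array is the 65535 limit of a 16-bit scanner once multiplied by 1 constant (829 to 987.5), and at least 99.97% of values are then multiples of 0.25 (tolerance 0.01 of a scanner unit), so no background subtraction is visible.

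The log2 of the deposited intensity was fitted without further scaling over all 1083 mouse probes with limma 3.58.1 in R 4.3.3 (trended moderated variances, two-sided, Benjamini-Hochberg adjusted p under 0.05). The numbers of arrays limit the precision. Tested on simulated data (200 changed probes among 1083), the fit recovered 59.0% of 1.5-fold, 89.5% of 2-fold and 96.5% of 3-fold changes. False calls made up 4.07%, 3.24% and 6.31% of the calls. The simulated noise was independent between probes, so deviations that probes of 1 array share were not covered. The changed probes were drawn from all mouse probes and were a larger share than the fit called in the data. The recovery is thus no rate for the bright mature probes miR-669c, miR-669e and miR-669n, whose SEs were 0.28 to 0.31. With a similar SE, miR-615-3p at -0.99 ± 0.30 did not pass, so a 2-fold change in these members could go uncalled. Members, lists, motifs and alternatives were chosen with earlier results of these data known. Named with values are the members that passed, the 3 brightest of each kind and the largest and smallest difference. A bound on a fold raises the dim group to its arrays' Randomer percentile. Deviations of arrays with the same mouse number correlated weakly (r = 0.104, 0.124 and 0.178 across mouse probes). For different numbers r ran from -0.208 to 0.114, an overlapping range, so the numbers are not shown to be pairs. The labels call the mice littermates, and the numbers were tried as a block. Figures used Python 3.11.15 and matplotlib 3.10.9.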

Additional observations from a re-analysis of the deposited data

How the results depend on the processing

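The main run called 11 members, all higher. The other scalings, background settings, filters and variance models called 8 to 10 higher, apart from snoRNA and GAPDH scaling. Beside these they called 3.69% (quantile normalization) to 12.9% (only bright probes kept) of the mouse probes fitted. Scaling to snoRNA and GAPDH called 7 higher and 5 lower, beside 31.9% of all mouse probes called. Leaving out the -P probes gave 3, since it removes 8 of the 11 by construction, beside 8.09% of the mouse probes left. Leaving out 1 array gave 7 to 10, beside 3.14% to 11.9% of all mouse probes. With the mouse numbers as a replicate block 10 passed, beside 8.77% of all mouse probes. The block ended the call of miR-669i and changed no other. The median over all members was 0.09, and -0.48 with snoRNA and GAPDH scaling. The -P median of 1.70 was 1.98 with the Randomer mean subtracted, 1.26 after quantile normalization and 1.12 scaled to snoRNA and GAPDH. The mature median of 0.06 turned to -0.084, -0.21 and -0.51 under those settings and to -0.055 with values raised to the Randomer percentile, and ran from -0.10 to 0.13 when 1 array was left out. The difference of miR-669i turned to -0.21 with snoRNA and GAPDH scaling, -0.089 with raised values and -0.17 with the Randomer mean subtracted. The turns under snoRNA and GAPDH scaling follow from its construction, which lowers every difference by 0.58; for the others the cause was not tested. The Randomer difference ran from -0.080 to 0.0018 when 1 array was left out. Of the 11 called members 7 kept the call in every run that tested them. Under the random-sequence level nothing can be said of the 5 mature probes that exceed it on no Ctrl array.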
